A study of Rattus norvegicus with 6 samples.

Results

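The endogenous opioid genes of the rat comprise 3 peptide precursors, *Penk*, *Pdyn* and *Pnoc*, and 4 receptors, *Oprm1*, *Oprd1*, *Oprk1* and *Oprl1*. These 7 genes were taken from the deposited expression table by their symbol, out of 22050 listed genes, and all 7 passed the filter on low counts, so that each was tested among 14426 genes. The tissue was spinal cord of 3 sham rats and 3 SNI-NP rats, that is, rats with neuropathic pain (NP) induced by spared nerve injury (SNI), a lesion of the sciatic nerve that leaves its sural branch intact. The methods describe young adult male Sprague-Dawley rats for the whole study, and neither the segment taken for RNA sequencing, the day after surgery nor any pooling of animals is given in the sources used here. Sham rats underwent surgery as controls, and no further treatment is labelled for either group. Each library was counted as 1 replicate, and since nothing states that libraries came from separate animals, the p-values measure the spread between these libraries.

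Opioid peptides are cut from larger precursors. Proenkephalin (*Penk*) gives the enkephalins, prodynorphin (*Pdyn*) gives the dynorphins, and prepronociceptin (*Pnoc*) gives nociceptin. The mu receptor (*Oprm1*), the target of morphine, and the delta receptor (*Oprd1*) bind enkephalins, the kappa receptor (*Oprk1*) binds dynorphins, and the nociceptin receptor (*Oprl1*) binds nociceptin. All 4 receptors couple to inhibitory G proteins, which open potassium channels and close calcium channels. In the spinal cord the precursors are made by dorsal horn interneurons, and mu receptors lie both on dorsal horn neurons and on the central endings of nociceptors, whose cell bodies are in the dorsal root ganglia.

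Of the 7 genes, *Oprm1* was the only gene with an unadjusted p under 0.05 in edgeR's quasi-likelihood test, and it was lower in SNI-NP rats. Among all genes tested, 10.8% passed this threshold and 5.94% passed it with a lower level in SNI-NP rats. No opioid gene passed after Benjamini-Hochberg adjustment over all genes, where 0% of the genes did. The fitted change was below 0 for 6 of the 7 genes, as it was for 49.1% of all genes. The median log2 fold change of the 7 genes was -0.51, beside 0.01 (0.0057) over all genes tested. Medians were also below 0 for marker lists of central cell types. They were -0.49 for neurons, -0.42 for inhibitory and -0.22 for excitatory dorsal horn neurons, and -0.65 for motor neurons. For astrocytes, oligodendrocytes and microglia they were -0.39, -0.31 and -0.07, and for dorsal root ganglion neurons the median was 0.02. Medians of the remaining marker lists were above 0. They were 0.28 for peripheral myelin, 0.30 for meninges and fibroblasts, and 0.29 for lymphocytes and leukocytes. For granulocytes, erythroid cells and skeletal muscle they were 1.07, 1.20 and 2.28. In bulk tissue, fewer cells of a type and less RNA per cell cannot be told apart.

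Each library held 16670760 to 18151156 estimated counts. A count of 0 would allow up to 0.165 to 0.18 CPM (a gene's count scaled to a common library total), and this limit covers counting error only. Central markers were present in every library, with summed levels of 749 to 1829 CPM for 6 astrocyte genes and 291 to 735 CPM for 7 genes of inhibitory dorsal horn neurons. Markers of tissue outside the cord were also present. The 10 genes of dorsal root ganglion neurons summed to 530, 1009 and 1164 CPM in the sham libraries and to 115, 1520 and 1112 CPM in the SNI-NP libraries, so that SNI-NP replicate 1 stood apart. Sham replicate 2 had the lowest sums of the astrocyte list and of the inhibitory dorsal horn list. The inhibitory list had 0 of 7 genes at an unadjusted p under 0.05 by edgeR. Results that rest on either library are given without it.

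**Figure D1:**
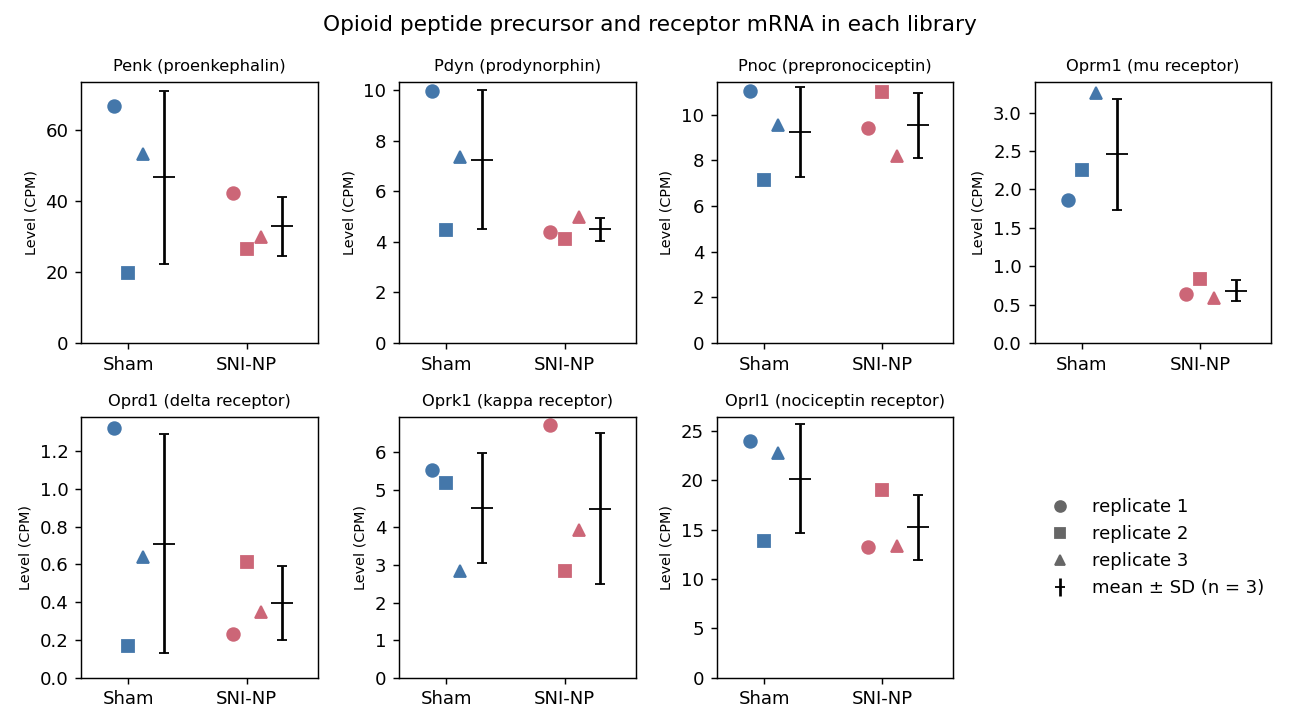
Level of each opioid gene in CPM (linear axes from 0) in the 3 sham and 3 SNI-NP libraries. Points are libraries, with the replicate shown by the marker, and bars are the mean ± SD (n = 3). *Oprm1* is the only gene for which the 3 SNI-NP libraries, at 0.58 to 0.833 CPM, all lie below the 3 sham libraries, at 1.86 to 3.26 CPM.

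Because the result turns on *Oprm1*, the sequence in front of its start sites is shown. RefSeq's GRCr8 build lists 2 start sites for the gene, 20612 bases apart on the plus strand of chromosome 1. The table used here held an entry for 3 of the 7 genes, *Oprm1*, *Pdyn* and *Oprd1*. Each line gives the 250 bases before a start site, 5′ to 3′, in lower case with CACCC boxes, short elements bound by zinc finger factors of the KLF family, in capitals.

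*Oprm1*, downstream start site, chr1:45585733-45585982: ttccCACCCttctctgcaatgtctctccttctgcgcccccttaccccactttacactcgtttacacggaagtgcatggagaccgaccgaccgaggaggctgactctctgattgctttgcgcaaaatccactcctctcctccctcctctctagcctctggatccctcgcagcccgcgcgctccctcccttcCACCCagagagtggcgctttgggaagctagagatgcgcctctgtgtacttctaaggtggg

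*Oprm1*, upstream start site, chr1:45565121-45565370: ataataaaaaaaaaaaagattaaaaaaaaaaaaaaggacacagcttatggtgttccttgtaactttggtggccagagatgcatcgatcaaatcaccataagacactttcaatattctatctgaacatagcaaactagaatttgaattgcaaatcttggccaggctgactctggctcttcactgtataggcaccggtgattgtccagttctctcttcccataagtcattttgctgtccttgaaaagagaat

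The window before the downstream start site had a GC content of 58.4% and held 2 CACCC boxes, and the window before the upstream start site had a GC content of 36.4% and held none. The median of all 33469 windows of this length was 51.2%, and 49.2% of them held CACCC on either strand. Neither *Oprm1* window held the cyclic AMP response element TGACGTCA, the AP-1 site TGACTCA, the GC box GGGCGG or the TATA box TATAAA on either strand, which occurred in 1.59%, 4.05%, 30.5% and 12.9% of all windows. Such matches describe letters in the window and nothing about factor binding.

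Proenkephalin was the most abundant of the 7 mRNAs. *Penk* had 66.8, 19.7 and 53.2 CPM in the sham libraries and 42.1, 26.3 and 29.9 CPM in the SNI-NP libraries. The groups overlapped, since Sham replicate 2 was the lowest of all 6 libraries and Sham replicate 1 the highest. The mean of the 3 sham libraries was 46.6 ± 24.2 CPM and that of the 3 SNI-NP libraries 32.8 ± 8.27 CPM (± SD). On the log2 scale the fitted difference was -0.51 ± 0.41 (standard error, 95% interval -1.47 to 0.46, adjusted p = 0.652 by edgeR). The spread of *Penk* over the 6 libraries, a coefficient of variation of 45.0%, was larger than the 3.83% that counting alone would give at its mean count.

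The *Penk* level varied together with markers of several central cell types from library to library. Sham replicate 2 had the lowest and Sham replicate 1 the highest summed level of the inhibitory dorsal horn list, 291 and 735 CPM, and the same held for the astrocyte list, at 749 and 1829 CPM. Likeness was measured by the root mean square difference of centred log2 profiles over the 6 libraries, among 14425 genes. The nearest markers were *Slc6a5*, the neuronal glycine transporter (17th nearest gene), and *Slc32a1*, the vesicular transporter of GABA and glycine (22nd). Next were the cholinergic motor neuron genes *Chat* (30th) and *Slc18a3* (45th), the oligodendrocyte gene *Mog* (49th) and *Gad1*, a GABA-synthesizing enzyme (65th). Further genes of the inhibitory list ranked lower, among them *Pax2* (206th), *Gad2* (394th) and *Lhx1* (12188th). So did the motor neuron genes *Prph* (14015th) and *Isl1* (14287th) and the oligodendrocyte genes *Mbp* (1739th) and *Cnp* (1854th). The median difference from *Penk* was 0.261 for the inhibitory list, 0.279 for motor neurons, 0.313 for oligodendrocytes and 0.32 for astrocytes. The medians of these lists were thus similar. Per 100 CPM of the inhibitory list, *Penk* averaged 8.78 ± 1.87 CPM over the sham libraries and 8.08 ± 0.849 CPM over the SNI-NP libraries (± SD, n = 3 each). With the level of that list as a covariate, an alternative chosen after seeing the data, the log2 fold change of *Penk* was -0.03 (standard error 0.16). In the fit with condition alone, the *Penk* value rested on single sham libraries. It was -0.87 without Sham replicate 2 (unadjusted p = 0.0059, adjusted p = 0.217 by edgeR) and -0.16 without Sham replicate 1.

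Prodynorphin was less abundant per length than proenkephalin in every library. In RefSeq's GRCr8 annotation *Pdyn* overlaps a long noncoding RNA, and with the strand setting of the counting not given in the sources used here, reads of both cannot be told apart. *Pdyn* had 9.97, 4.45 and 7.33 CPM in the sham libraries and 4.37, 4.11 and 4.99 CPM in the SNI-NP libraries. Sham replicates 1 and 3 lay above all SNI-NP libraries, and Sham replicate 2 lay among them. The fitted log2 difference was -0.69 ± 0.30 (standard error, 95% interval -1.40 to 0.02), with an unadjusted p of 0.0557 and an adjusted p of 0.467 by edgeR. By DESeq2 the unadjusted p was 0.0427 and the adjusted p 0.418, so that *Oprm1* and *Pdyn* were the 2 opioid genes under an unadjusted 0.05 there, beside 9.80% of all genes. Without Sham replicate 2 the edgeR value was -0.94 (unadjusted p = 0.0059), and without Sham replicate 1 it was -0.40. Per 100 CPM of the inhibitory list, *Pdyn* stood at 1.36, 1.53 and 1.45 CPM in the sham libraries and at 0.887, 1.11 and 1.43 CPM in the SNI-NP libraries. On this scale the groups still overlapped, but only by SNI-NP replicate 3. With that list as a covariate the fitted log2 difference became -0.42 ± 0.23 (standard error, unadjusted p = 0.115 by edgeR).

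The prepronociceptin mRNA was the most even of the 7. *Pnoc* had 11.0, 7.15 and 9.55 CPM in the sham libraries and 9.43, 11.0 and 8.17 CPM in the SNI-NP libraries, and the groups overlapped. Group means were 9.25 ± 1.96 and 9.53 ± 1.41 CPM (± SD, n = 3 each). The fitted log2 difference was 0.04 with a 95% interval of -0.46 to 0.55, and a change within these bounds was not detectable. Its coefficient of variation over the 6 libraries was 16.4%, the lowest of the 7 genes, and counting alone would give 7.83%.

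**Figure D2:**
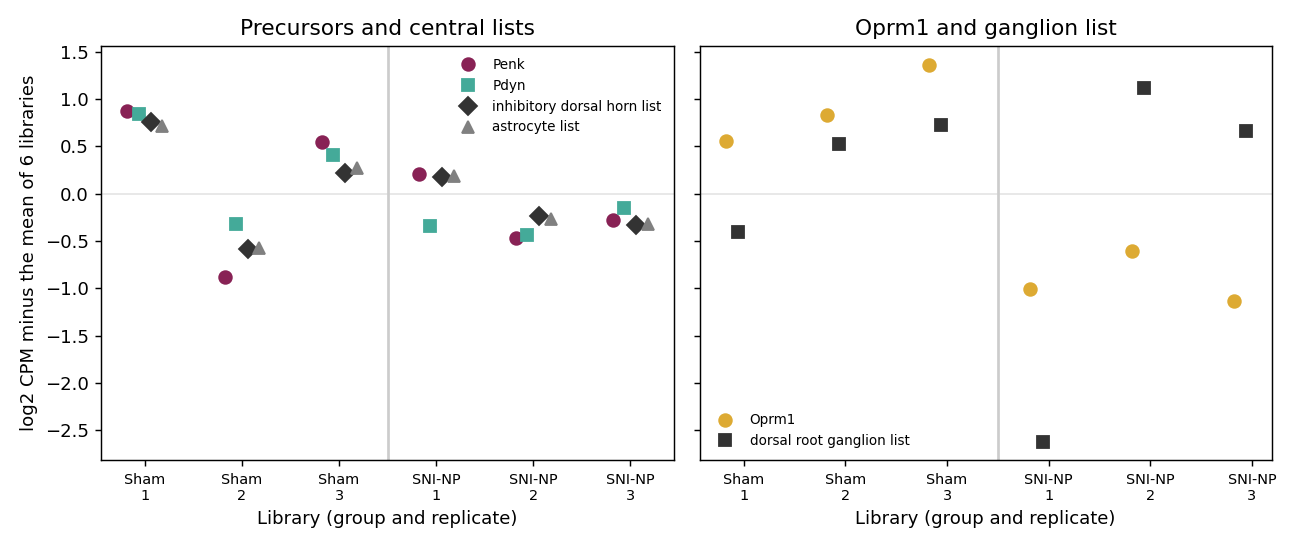
Level of *Penk*, *Pdyn*, *Oprm1* and 3 marker lists in each library, as log2 CPM minus the mean of the 6 libraries. Each point is 1 library, and lists are summed CPM. *Penk* lies near the inhibitory dorsal horn list and the astrocyte list in all libraries, with the lowest point of all 3 in Sham replicate 2, whereas *Oprm1* is low in all SNI-NP libraries although the dorsal root ganglion list is lowest in SNI-NP replicate 1 and highest in SNI-NP replicate 2.

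The mu receptor mRNA was the member that separated the groups. *Oprm1* (ENSRNOG00000018191) had 31, 40 and 56 counts in the sham libraries and 11, 15 and 10 counts in the SNI-NP libraries, which is 1.86, 2.25 and 3.26 CPM against 0.633, 0.833 and 0.58 CPM. Every SNI-NP library lay below every sham library, as was the case for 8.15% of all genes tested. Means were 2.46 ± 0.721 CPM for sham and 0.682 ± 0.134 CPM for SNI-NP libraries (± SD, n = 3 each), and the fitted level was 3.57-fold lower in SNI-NP rats. The fitted log2 difference was -1.84 ± 0.36 (standard error, 95% interval -2.69 to -0.98). The edgeR test gave an unadjusted p of 0.00124 and an adjusted p of 0.294. This p was smaller than that of 99.6% of the genes tested. DESeq2 put the difference at -1.86 ± 0.49 (standard error) with an adjusted p of 0.0199, and 1.27% of its genes had an adjusted p under 0.05. An exact permutation test of 3 libraries against 3 gave a two-sided p of 0.1, the smallest it can give.

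Leaving out each library in turn, the log2 fold change of *Oprm1* lay between -2.03 and -1.61, with unadjusted p-values of 0.00181 to 0.00661 and adjusted p-values of 0.105 to 0.728 by edgeR. It was -1.80 without SNI-NP replicate 1, a fit in which 1.68% of all genes but not *Oprm1* (adjusted p = 0.105) passed the adjusted threshold, and -1.89 without Sham replicate 2. With the dorsal root ganglion list as a covariate it was -1.77 (standard error 0.38, adjusted p = 0.0764 by edgeR), and with the inhibitory dorsal horn list it was -1.87 (standard error 0.40, adjusted p = 0.446). The difference was of similar size with either list in the fit. Neither list had a gene at an unadjusted p under 0.05 by edgeR, and no other marker list was used as a covariate. The part of other cell types was not tested by these fits.

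Some general markers of neurons moved in the same direction as *Oprm1*. Of 7 neuronal genes, 3 were lower in SNI-NP rats at an unadjusted p under 0.05 by edgeR, *Snap25*, *Elavl4* and *Map2*, and the list summed to 2836 to 4134 CPM in sham rats and 1453 to 3464 CPM in SNI-NP rats. *Slc17a6*, the vesicular glutamate transporter of excitatory dorsal horn neurons, had 834, 618 and 859 counts in the sham libraries and 440, 483 and 466 counts in the SNI-NP libraries. It was the only gene of 6 tested in the excitatory list at that threshold (log2 fold change -0.77, unadjusted p = 0.00164, adjusted p = 0.307). Of the 10 dorsal root ganglion genes, 0 passed. Per 100 *Slc17a6* counts there were 3.72, 6.47 and 6.52 *Oprm1* counts in the sham libraries and 2.5, 3.11 and 2.15 in the SNI-NP libraries. Set against each of the 7 neuronal genes in the same way, the *Oprm1* ratio was lower without overlap for 6 of them. For *Rbfox3*, a marker of neuronal nuclei, it was 5.09, 9.93 and 10.04 against 3.69, 2.46 and 2.40. The groups came closest for *Snap25*, with a lowest sham ratio of 0.669 and a highest SNI-NP ratio of 0.643, and for *Nefl*, with 0.0879 and 0.08. For *Map2*, which encodes a dendritic microtubule protein, the ratio was 0.604, 1.67 and 1.38 in the sham libraries and 0.401, 1.39 and 0.792 in the SNI-NP libraries, and the groups overlapped. Since the *Oprm1* levels themselves did not overlap, ratios without overlap are likely, and their share over all genes was not computed. The part of neuron content in the level of *Oprm1* was not tested.

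The reads behind *Oprm1* were few, and its deposited length-scaled values moved less than its counts. From count, total and FPKM (counts scaled by gene length and library total), the length that the authors' values imply for *Oprm1* was 2130 to 2164 bases in the 3 sham libraries and SNI-NP replicate 1, but 1679 bases in SNI-NP replicate 2 and 1221 bases in SNI-NP replicate 3. The implied length also varied for *Oprl1*, from 2645 to 3009 bases. For the low-count *Oprd1* it ran from 1377 to 1464 bases, a spread that rounding of its low FPKM values can give. For *Penk*, *Pdyn*, *Pnoc* and *Oprk1* it differed by at most 11 bases between libraries. The FPKM of *Oprm1* was 0.87, 1.10 and 1.53 in the sham libraries and 0.28, 0.50 and 0.47 in the SNI-NP libraries, and the groups did not overlap. On the log2(FPKM + 0.1) scale, which understates differences of low genes, it was -1.29 (standard error 0.32, adjusted p = 0.305 by limma). In RefSeq's GRCr8 annotation the gene overlaps *Ipcef1*, a long noncoding RNA and a pseudogene, and the use of strand in counting is not given in the sources used here, so that their reads cannot be told apart. *Ipcef1* itself, chosen after its overlap was seen, had 18, 4 and 17 counts in the sham libraries and 14, 3 and 14 in the SNI-NP libraries.

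Among the tested genes, the profile nearest to *Oprm1* over the 6 libraries was that of *Kcnh7*, a voltage-gated potassium channel gene, with a root mean square difference of 0.17 on the log2 scale against a median of 0.903 over all genes. *Mpp7*, which encodes a membrane scaffold protein, was next at 0.219. *Kcnh7* had 36, 66 and 81 counts in the sham libraries and 14, 24 and 14 in the SNI-NP libraries, a fitted log2 change of -1.84. These measures of likeness describe 6 libraries and carry no test.

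The remaining receptor mRNAs overlapped between the groups. *Oprd1*, the delta receptor gene, was the rarest member, with 22, 3 and 11 counts in the sham libraries and 4, 11 and 6 in the SNI-NP libraries. Both its highest and its lowest library were sham libraries. Its fitted log2 difference of -0.82 ± 0.77 (standard error) had a 95% interval from -2.61 to 0.98, and at this depth a change within those bounds was not detectable. Without Sham replicate 1 the value was -0.02 (-0.0235).

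*Oprk1*, the kappa receptor gene, had 5.52, 5.18 and 2.85 CPM in the sham libraries and 6.73, 2.83 and 3.94 CPM in the SNI-NP libraries. The highest level was in SNI-NP replicate 1, the library with the lowest dorsal root ganglion list, and the lowest in SNI-NP replicate 2, where that list was highest. The fitted log2 difference was -0.01 (-0.0064) with a 95% interval of -0.92 to 0.91. It was -0.44 without SNI-NP replicate 1 and 0.10 without Sham replicate 2, and its sign turned under other settings as well.

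*Oprl1*, the nociceptin receptor gene, was the most abundant receptor in every library. It had 24.0, 13.8 and 22.8 CPM in the sham libraries and 13.3, 19.0 and 13.4 CPM in the SNI-NP libraries, so that Sham replicate 2 lay among the SNI-NP libraries and SNI-NP replicate 2 near the sham libraries. The fitted log2 difference was -0.40 ± 0.25 (standard error, 95% interval -0.99 to 0.18, adjusted p = 0.56 by edgeR). It was -0.61 both without Sham replicate 2 (unadjusted p = 0.022) and without SNI-NP replicate 2 (unadjusted p = 0.0445). Without Sham replicate 2, 4 of the 7 genes had an unadjusted p under 0.05, namely *Oprm1*, *Oprl1*, *Penk* and *Pdyn*, all lower in SNI-NP rats. The share of all genes that passed in that fit was 14.6%, and 8.36% passed with a lower level.

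The other members had their nearest profiles in mixed genes, by the same measure over the 6 libraries. For *Penk* these were *Kcnj14*, an inwardly rectifying potassium channel gene, at a root mean square difference of 0.0624, and *Slc7a10*, an amino acid transporter gene, at 0.0899, against a median of 0.64 over all genes. For *Pdyn* they were *Bend6* and *Serpini1*, which encodes neuroserpin, both at 0.101. *Oprl1* was nearest to *Srgap3* (0.05) and *Sgpp2* (0.0502), *Pnoc* to *Rpusd1* (0.0264) and *Helq* (0.0516), and *Oprk1* to *AABR07056636.1* (0.132) and *N4bp2* (0.141). *Oprd1* was nearest to *AABR07000733.1* (0.208) and *Kcne5* (0.288), at few counts.

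**Figure D3:**
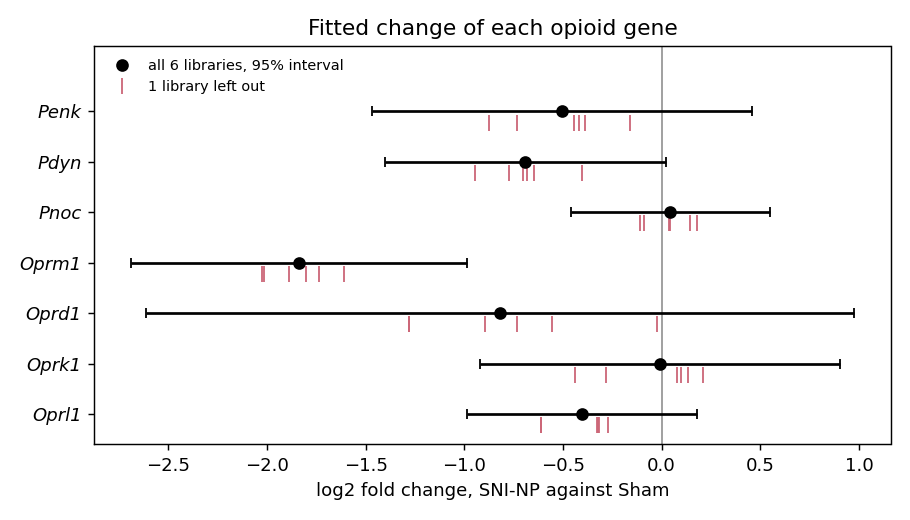
Fitted log2 fold change of each opioid gene, SNI-NP against sham (edgeR). Black points are the fits to all 6 libraries with their 95% intervals, and red ticks are the 6 fits with a library removed. The interval of *Oprm1*, -2.69 to -0.98, lies below 0, and all 6 of its ticks lie between -2.03 and -1.61.

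Levels of different genes were compared only per length, as FPKM over the 6 libraries. *Penk* stood first with 29.3 ± 13.1 FPKM (SD, n = 6) and was the highest of the 7 genes in 6 of 6 libraries. *Oprl1* followed with 6.20 ± 1.90 FPKM and *Pnoc* with 4.66 ± 0.744 FPKM, and their ranges overlapped, with *Oprl1* above *Pnoc* in 5 of 6 libraries. *Pdyn* had 2.41 ± 0.954 FPKM and *Oprk1* 1.74 ± 0.584 FPKM, and *Pdyn* was the higher of these neighbours in 4 of 6 libraries. The lowest were *Oprm1* with 0.792 ± 0.468 FPKM and *Oprd1* with 0.388 ± 0.298 FPKM. *Oprm1* was above *Oprd1* in 5 of 6 libraries, and the exception was Sham replicate 1. *Oprm1* exceeded *Oprk1* in Sham replicate 3 only, at 1.53 against 1.11 FPKM.

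The makeup of the receptor pool was dominated by the nociceptin receptor. *Oprl1* gave 59.0% to 78.1% of the summed FPKM of the 4 receptors. The share of *Oprm1* was 7.02%, 13.4% and 13.9% in the sham libraries and 3.91%, 5.38% and 7.09% in the SNI-NP libraries. The groups overlapped in this share, by Sham replicate 1 and SNI-NP replicate 3. The implied length of *Oprm1* was 2137 bases in the former and 1221 in the latter, and a shorter length raises FPKM. Among the precursors, *Penk* gave 73.1% to 83.8% of the summed FPKM, and its share averaged 80.1% ± 6.12 over the sham and 78.1% ± 4.82 over the SNI-NP libraries (± SD, n = 3 each). The precursors together had 42.4 ± 19.5 FPKM in sham and 30.3 ± 5.05 FPKM in SNI-NP libraries. The receptors together had 10.5 ± 2.14 and 7.70 ± 1.41 FPKM (± SD, n = 3 each), and the groups overlapped in both sums.

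**Figure D4:**
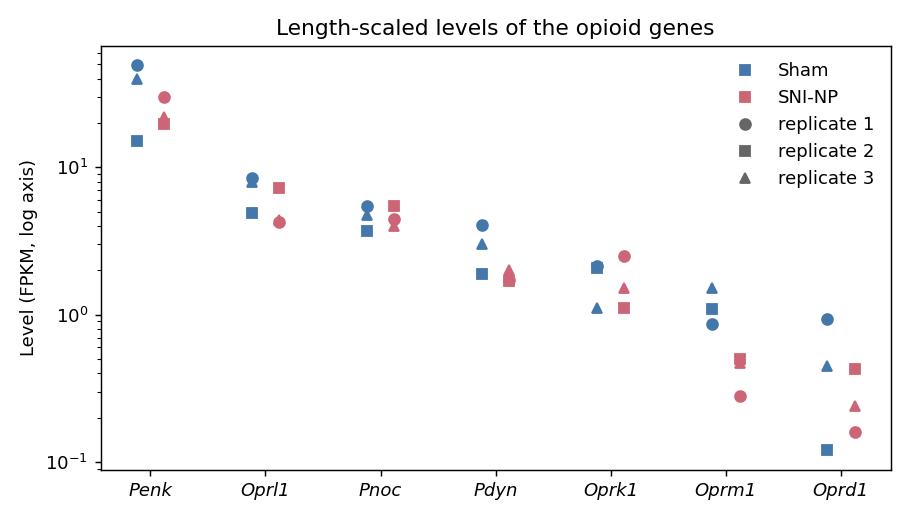
Deposited FPKM of the opioid genes (log axis), ordered by their mean over the 6 libraries. Each point is 1 library, coloured by group, with the replicate shown by the marker. *Penk* lies above every other gene, at 15.2 to 49.4 FPKM, and *Oprm1* and *Oprd1* are lowest, at 0.28 to 1.53 and 0.12 to 0.93 FPKM.

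The other genes of the opioid pathway were read from lists of peptide processing and breakdown, further opioid-binding proteins, G proteins, effectors, desensitisation, and gene regulators or receptor chaperones. Of 51 genes tested, 3 were higher in SNI-NP rats at an unadjusted p under 0.05 by edgeR and 0 were lower, against 4.91% and 5.94% of all genes, and 0 passed after adjustment over all genes. *Grk6*, a kinase that phosphorylates active receptors, averaged 46.2 ± 0.562 CPM over the sham and 56.0 ± 2.76 CPM over the SNI-NP libraries (± SD, n = 3 each), a log2 difference of 0.28 (unadjusted p = 0.0179 by edgeR). For *Ackr3*, an atypical receptor that scavenges opioid peptides, the difference was 0.49 (unadjusted p = 0.0295 by edgeR). For *Gnai2*, an inhibitory G protein subunit, it was 0.23 (unadjusted p = 0.0447 by edgeR). All 3 were higher in every SNI-NP library than in every sham library, an order that their choice by p makes likely. Beyond them, this held for 1 pathway gene, in the peptide breakdown list, and over all genes for 10.4%. The adjusted p of *Grk6*, *Ackr3* and *Gnai2* was 0.436, 0.436 and 0.453 by edgeR. The calls did not hold in every fit with a library left out. Without Sham replicate 1, 0 of the 51 genes passed. There the unadjusted p by edgeR was 0.0743 for *Grk6*, 0.0682 for *Ackr3* and 0.163 for *Gnai2*. Their log2 differences in that fit were 0.25, 0.31 and 0.18, and 895 of all genes passed instead of 1565. Only *Ackr3* passed without Sham replicate 3 or without SNI-NP replicate 2. Without Sham replicate 2, 8 genes passed, 3 of them higher and 5 lower, including *Grk6* and *Ackr3* but not *Gnai2* (unadjusted p = 0.0536 by edgeR). In that fit 14.6% of all genes passed, and 8.36% passed with a lower level.

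In the lists without a gene past the threshold, the most abundant gene is given. In the processing list this was *Cpe*, a carboxypeptidase that trims opioid peptides, by FPKM, with a log2 difference of -0.03 ± 0.13 (standard error), and *Pam*, which amidates peptides, by CPM, with one of 0.11 ± 0.11. In the other lists the same gene led on both scales. The log2 difference of *Npepps*, an aminopeptidase, was -0.21 ± 0.11. For *Adcy6*, an adenylyl cyclase, it was 0.12 ± 0.14, and for *Wls*, a binding partner of the mu receptor, 0.17 ± 0.12. *Pcsk1n*, which encodes an inhibitor of prohormone processing, was listed at 0 in all 6 libraries. Whether this reflects its level or the mapping and annotation was not tested. The median log2 fold change of the 51 genes was -0.04, beside 0.01 (0.0057) over all genes.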

How the data were processed

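RNA-seq of rat spinal cord was analysed in 3 sham and 3 SNI-NP libraries, grouped by the sample labels. For each gene the authors deposited an estimated count, not normalized, and an FPKM value, which is scaled by gene length and library total. They mapped reads to the release they call Rat6 and kept unique sequences. The submitters' processing notes name FastQC, STAR and HTSeq, while versions, annotation and strand setting are not given in the sources used here. Of all deposited counts, 6.15% were not whole, which HTSeq's whole-read counting would not give, so the tool behind the counts is unclear. Of the members' counts, 0 were not whole.

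Counts were rounded to whole numbers, filtered with filterByExpr, scaled by TMM and tested with edgeR version 4.0.16 in R version 4.3.3 (quasi-likelihood, condition as the single term, Benjamini-Hochberg adjustment over 14426 genes). DESeq2 version 1.42.0, which the study names, was run as an alternative. limma version 3.58.1 was run on log2(FPKM + 0.1) and log2(FPKM + 1). Standard errors were derived from the quasi-likelihood statistic, and 95% intervals from them. All tests are two-sided. The edgeR fit with condition alone, DESeq2, the length offsets and limma on log2(FPKM + 0.1) were tried on simulated data. The permutation test and the fits with a block or a covariate were not.

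Depth was 16670760 to 18151156 counts per library, and counting error was 3.83% to 32.4% per gene. The alternatives were RLE and upper-quartile factors, no filter, at least 10 counts in every library, the replicate number as a block, loess length offsets (span 0.5) with and without the block, marker lists as covariates and leaving out each library. The 7 members and all lists were chosen with earlier results of these data known. Named pathway genes are those with an unadjusted p under 0.05 or, failing that, the most abundant gene of a list by CPM or by FPKM. The profiles nearest to a member were ranked by root mean square difference of centred log2 CPM (prior count 2). Upstream sequences came from RefSeq's GRCr8 build, and no coordinates of the authors' build were used.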

Additional observations from a re-analysis of the deposited data

How the results depend on the processing

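The log2 fold changes of *Oprm1*, *Oprd1*, *Oprl1*, *Penk* and *Pdyn* kept their sign in every alternative that was run, and only *Oprm1* crossed the adjusted threshold of 0.05 in any of them, with DESeq2 (-1.86). *Oprd1* could not be fitted with at least 10 counts in every library. The *Oprk1* value turned positive with length offsets (0.0202), with length offsets and the replicate block (0.0018) and with the inhibitory dorsal horn list (0.0378), and its values with 1 library removed ran from -0.44 to 0.21. *Pnoc* ran from -0.11 to 0.18 in those fits. Instead of 1 opioid gene, 2 had an unadjusted p under 0.05 with DESeq2 and 1 to 4 when a library was left out. The 4 came without Sham replicate 2. Leaving out SNI-NP replicate 2 gave 2, in a fit where 1321 of 14426 genes passed. Instead of 3 pathway genes, 5 passed with length offsets, 0 with the replicate block and 0 to 8 when a library was left out (0 without Sham replicate 1, 8 without Sham replicate 2, 1 without Sham replicate 3 or SNI-NP replicate 2). The share of all genes that passed was 13.9% with length offsets and 14.6% without Sham replicate 2. Of all genes, 1565 had an unadjusted p under 0.05, and 895 to 2112 when a library was left out, with 895, 1005 and 898 without Sham replicate 1, Sham replicate 3 and SNI-NP replicate 3. The number past the adjusted threshold was 0, but 192 with DESeq2, 216 with the dorsal root ganglion list and 0 to 242 when a library was left out, the 242 without SNI-NP replicate 1, while leaving out Sham replicate 2 gave 2. Of the genes at an unadjusted p under 0.05, 45.2% were higher in SNI-NP rats, against 64.8% with length offsets. Same-numbered libraries did not deviate together (correlations -0.143 to 0.214), so the numbers were not taken as pairs. With the replicate block, *Oprm1* was at -1.81 (adjusted p = 0.452) and 1319 genes had an unadjusted p under 0.05. The cause of these differences was not tested. Depth limits *Oprd1* most, with 57 counts in all.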
